A study of Mus musculus with 19 samples.

Results

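Of 90154 open-chromatin peaks measured by ATAC-seq in mouse neurospheres (NSPs) and in cells differentiating from them into astrocytes, 306 were chosen for being higher with TNF at 72 h and not at 24 h. A peak was taken when its mean in the TNF-treated 72 h libraries was at least 1.7 times the untreated 72 h mean, its mean in the TNF-treated 24 h libraries was at most 1.2 times the untreated 24 h mean, and its TNF-treated 72 h mean was at least 50 normalised reads. ATAC-seq uses a transposase that cuts DNA where it is not covered by nucleosomes, so the reads in a peak measure how accessible that stretch was. The peaks were selected on the group means at 24 h and 72 h, so the values of these groups, and the calls of a fit over all peaks in them, are given below as a description and support nothing about the chosen peaks.

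The NSPs came from neural stem cells of the ventricular zone of single wild-type C57BL/6J embryos at embryonic day 14, and all groups share this genotype. NSPs were kept as floating spheres with EGF (3 libraries). The other groups were plated on poly-L-ornithine and changed to medium with serum: 24 h without TNF (3 libraries), 24 h with TNF at 50 ng/ml (3), 72 h without TNF (3), 72 h with TNF at 50 ng/ml (3) and 1 week without TNF (4). No 1 week library with TNF was analysed. The libraries are bulk samples, so a larger share of cells with an open site and a more open site in each cell cannot be told apart. Nothing in the labels ties a library to an embryo, and p-values therefore measure the spread between these libraries, which may be partly technical.

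TNF binds its receptors on the cell surface and leads to the release of NF-kB from its inhibitors, after which NF-kB enters the nucleus and binds sites near inflammatory genes. Some of these sites are open beforehand, whereas others open after the signal, together with AP-1 and other factors made in response to it. In astrocytes TNF is one of the cytokines of microglia that elicit a reactive state with chemokine release and antigen presentation genes.

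Reads in peaks ranged from 11337790 to 18780028 among the 12 libraries of the rule, and from 9640256 to 39349111 among all 19. Names of the 72 h and 1 week libraries carry a tag that those of the NSP and 24 h libraries lack, so time and whatever the tag marks cannot be told apart between these blocks, whereas the TNF comparison at each time lies within one block. Of 24 astrocyte genes, 18 had a peak within 1 kb of a gene end, and so did 16 of 18 progenitor and proliferation genes. Among markers of other cells, 8 of 15 neuronal, 7 of 12 oligodendrocyte lineage and 5 of 15 mesenchymal and vascular ones did. Of 15 microglia and macrophage markers, 6 did, and Cx3cr1, Csf1r, Aif1, Itgam, Ptprc, Trem2, C1qa, C1qb and Tyrobp had none. The 7 peaks at microglial genes summed to between 1126 and 1250 normalised reads at 72 h and between 1341 and 1361 with TNF (median log2 difference 0.10). At peaks of the other lists this median at 72 h was 0.17 (progenitor and proliferation), 0.19 (oligodendrocyte lineage) and 0.07 (mesenchymal and vascular). It was 0.03 at neuronal and -0.05 at astrocyte genes. The part of microglia in the results below was not tested.

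Of the 306 peaks, 9 overlapped the promoter window that RefSeq gives for a gene (250 bases before to 50 after its start, 11 windows). The share of all peaks that overlap such a window was not counted. In 5 windows, the 250 bases before the start lay wholly inside the peak, those of Tmem98, Tcte2, H2-Aa, Sgms1 and Cox6b2. The 3 of them that hold a match to an NF-kB or TEAD motif are printed here, since in them the chosen peak covers the sequence next to a start site. They are the 250 bases before the start on the gene's own strand (RefSeq, GRCm38.p6), 5′ to 3′, and capitals mark matches to an NF-kB pattern (GGGA, any 4 bases, CC) or a TEAD pattern (CATTCC) on either strand.
H2-Aa, chr17:34287824-34288073, minus strand: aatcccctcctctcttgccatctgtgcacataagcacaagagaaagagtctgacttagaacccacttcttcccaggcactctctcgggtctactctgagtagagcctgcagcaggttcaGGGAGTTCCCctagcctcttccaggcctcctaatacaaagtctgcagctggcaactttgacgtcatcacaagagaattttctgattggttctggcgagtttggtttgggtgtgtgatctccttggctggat
Cox6b2, chr7:4753095-4753344, minus strand: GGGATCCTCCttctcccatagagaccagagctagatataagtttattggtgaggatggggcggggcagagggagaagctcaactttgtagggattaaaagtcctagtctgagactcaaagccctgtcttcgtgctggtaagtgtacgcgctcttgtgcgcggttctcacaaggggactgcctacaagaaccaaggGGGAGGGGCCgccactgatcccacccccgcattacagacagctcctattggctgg
Sgms1, chr19:32349317-32349566, minus strand: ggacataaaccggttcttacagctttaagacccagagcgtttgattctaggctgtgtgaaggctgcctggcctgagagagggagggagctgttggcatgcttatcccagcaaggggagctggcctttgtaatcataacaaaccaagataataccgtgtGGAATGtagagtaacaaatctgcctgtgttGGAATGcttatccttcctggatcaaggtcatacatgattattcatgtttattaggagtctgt

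H2-Aa encodes the alpha chain of an MHC class II molecule, which presents peptides to CD4+ T cells, and its NF-kB match begins at base 120 of the printed run. Cox6b2 encodes a testis form of a cytochrome c oxidase subunit and holds NF-kB matches at bases 1 and 196. Sgms1 encodes a sphingomyelin synthase, its printed start is an internal one 40.5 kb from the ends of the gene, and TEAD matches lie at bases 159 and 189. Over whole windows, the NF-kB pattern was in 2 of these 5 and in 2 of the 11 windows that a chosen peak overlapped, against 20.7% of 32851 RefSeq promoters, and the TEAD pattern in 1 of the 5 and 2 of the 11, against 14.7%. The AP-1 pattern, TGANTCA, was in 0 of the 5 and 2 of the 11, against 7.81%, and the GATA pattern, AGATAA, in 2 of the 5 and 4 of the 11, against 11.2%. Each other pattern searched was in at most 6 of the 11. So few windows allow no comparison with all promoters, and a match shows only that the letters are there.

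At the H2-Aa promoter, the untreated 72 h libraries held 73.3, 82.5 and 99.4 normalised reads and the TNF libraries 148, 140 and 160. At 24 h the values were 66.0, 79.7 and 62.8 without TNF and 76.9, 93.7 and 63.3 with it. The groups were apart at 72 h and overlapped at 24 h, an order that the choice favours. The Sgms1 site held 97.8, 82.5 and 80.3 at 72 h and 172, 136 and 149 with TNF, and again the groups did not overlap. Sgms1 was at 28.4 ± 7.86 (SD, n = 3) in NSPs and 198 ± 32.6 (n = 4) at 1 week, so its TNF level at 72 h lay between the untreated 72 h and the 1 week levels.

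Among 63737 peaks with a TNF-treated 72 h mean of at least 50, 4124 had a TNF ratio of at least 1.7 at 72 h. Of these 4124, 2734 (66.3%) also had a ratio of at least 1.7 at 24 h, 1084 (26.3%) had a 24 h ratio between the limits of 1.2 and 1.7, and 306 (7.42%) lay at or under 1.2. Most peaks with this ratio at 72 h thus also had it at 24 h, and no gap separated the 306 from the rest. Lowering the 24 h limit to 1.1 left 184 peaks and to 1 left 97.

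**Figure D1:**
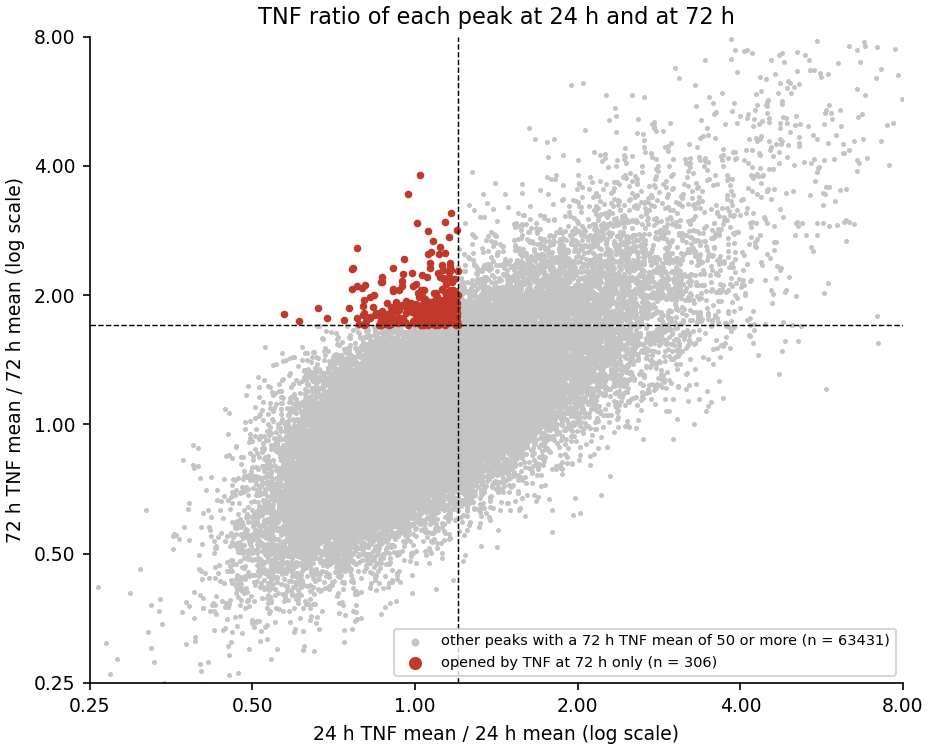
TNF ratio of each peak at 24 h (x axis) and at 72 h (y axis), both on log scales, with the 306 chosen peaks in red, 63431 other peaks with a 72 h TNF mean of at least 50 in grey, and the limits of 1.2 and 1.7 as dashed lines. The red points are one corner of a continuous cloud, and 69 grey peaks lie outside the axes, which run from 0.25 to 8.

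The chosen peaks had a median TNF ratio of 1.84 at 72 h (highest 3.82) and 1.06 at 24 h (lowest 0.572). Most ratios were close to the limits: at 72 h, 234 of the 306 had a ratio under 2, 72 one of at least 2 and 3 one of at least 3. At 24 h, 122 had a ratio over 1.1 and 14 a ratio under 0.8. Just inside the limit at 72 h were peaks nearest to Gata3 (1.7006) and Zfand3 (1.7007), and just outside it peaks within Gigyf2 (1.6995) and Tsc1 (1.6992). At 24 h, the peaks of Cx3cl1 (1.1993) and Ndrg1 (1.1989) were inside and those of Pmfbp1 (1.2011) and Ube2e2 (1.2016) outside. Peaks of Fanca and Mapk8 were kept at a TNF-treated 72 h mean of 50.2, and those of Ptprn2 and Wdr31 were left out at 49.6 and 49.4. Neighbours across a limit differed by far less than their libraries did, as in the Gigyf2 peak, which held 45.0, 28.7 and 51.0 normalised reads at 72 h and 85.8, 70.9 and 55.2 with TNF.

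These were also faint peaks. The median of their means was 41.7 normalised reads at 72 h and 79.9 with TNF, and 55.1 at 24 h and 56.5 with TNF, whereas peaks with a TNF-treated 72 h mean of at least 50 had medians between 127 and 136 in the 6 groups. In unscaled reads, the median per library was 33 at 72 h and 68 with TNF. Counting error alone gives such a peak a standard error of 0.18 on the log2 scale for the 72 h ratio (median, range 0.07 to 0.28) and of 0.17 for the 24 h ratio, which covers counting only. Of the 306 peaks, 208 had a TNF-treated 72 h mean under 100 and 21 one of at least 200.

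The ratio at 72 h involved both of its terms. In 223 of the 306 peaks the untreated 72 h mean lay under the untreated 24 h mean, and in 254 the TNF-treated 72 h mean lay over the TNF-treated 24 h mean. Both held in 171 peaks. In 52 peaks the untreated mean was lower at 72 h while the TNF-treated mean did not rise over its 24 h value, and in 83 the untreated mean at 72 h was not under that at 24 h. The peak in Rbms3, an RNA-binding protein gene (chr9:116855762-116856262, 283 kb inside the gene), held 41.0, 53.1 and 75.1 normalised reads at 24 h and 23.2, 29.9 and 26.8 at 72 h. With TNF it held 49.5, 47.4 and 32.2 at 24 h and 58.1, 62.1 and 63.6 at 72 h. All 3 untreated libraries were lower at 72 h than at 24 h, while the TNF libraries at 72 h lay above those at 24 h. Choosing a low untreated 72 h mean and a high TNF-treated one puts such values into the set, so the counts describe the choice. The counts also set 24 h against 72 h libraries, between which the name tag differs. Their shares over all peaks were not counted.

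Because the limits are sharp and the peaks faint, the choice was repeated with 1 replicate number left out of the 4 groups, and the peaks so chosen were read in the libraries left out. The choice on 2 replicates gave 580, 562 and 577 peaks, of which 190, 167 and 176 were also chosen with no library left out. Most of the peaks read here were thus not in the set chosen on all libraries. The values below describe choices by this rule and not that set alone. Over all peaks so chosen on 2 replicates, the median TNF ratio at 72 h was 1.86, 1.87 and 1.84 in the libraries used. In the libraries left out it was 1.36, 1.32 and 1.35. At 24 h it went from 1.01, 1.03 and 1.03 to 1.16, 1.25 and 1.12. In the left-out libraries the ratio was thus lower at 72 h and higher at 24 h than where the peaks were chosen. The times so differed less there. All eligible peaks had left-out medians of 1.04 to 1.06 at 72 h and of 0.998 to 1.02 at 24 h. In the left-out libraries, 28.8%, 27.8% and 24.8% of the peaks so chosen reached a 72 h ratio of 1.7, against 9.06%, 8.11% and 8.31% of eligible peaks. A 24 h ratio of at most 1.2 was met by 54.1%, 46.1% and 59.3%, less often than by eligible peaks (72.2%, 70.7% and 71.5%). Both ratio limits were met by 11.0%, 10.3% and 10.9%, against 1.99%, 1.79% and 1.99%. Eligible peaks are mostly brighter, and ratios of faint peaks vary more by counting error. No set of similar level was read there, so these shares do not compare like with like. Peaks chosen in the same way for opening at both times had ratios of 2.23, 2.25 and 2.24 at 72 h where chosen and 2.31, 2.07 and 2.14 where left out, so their medians changed less.

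**Figure D2:**
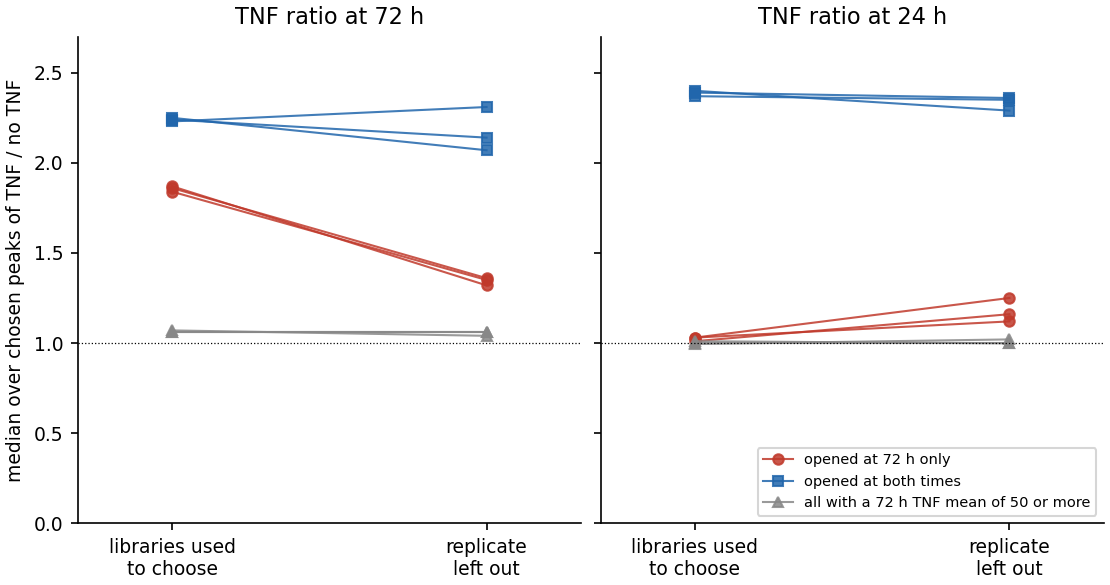
Median TNF ratio over peaks in the libraries used to choose them and in the replicate number left out, at 72 h (left) and 24 h (right), 1 line for each of the 3 replicate numbers. The red peaks are those of each choice on 2 replicates, and 190, 167 and 176 of them were also chosen with no library left out. Peaks opened at 72 h only (red) fall from between 1.84 and 1.87 to between 1.32 and 1.36 at 72 h and rise to between 1.12 and 1.25 at 24 h, while peaks opened at both times (blue) change less and eligible peaks (grey) stay near 1.

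Few of the 306 peaks were chosen regardless of which libraries were used. With any replicate number left out, 56 (18.3%) were kept, and with any 1 of the 12 libraries left out 47 (15.4%). Both ratio limits were met within each replicate number by 10 (3.27%). Replicate numbers are those of the sample titles. At 72 h the library names number the TNF libraries differently (2, 3 and 4, against 1, 2 and 3 without TNF), so a shared title number need not mark a shared culture there. The choice without untreated 72 h replicate 2 gave 464 peaks, 256 of them among the 306. Among peaks named elsewhere in the text, the 47 include those nearest to Ano5, Zdhhc21, Tbl1x, Rbms3, Mycn, Galnt7, H2-DMb1, H2-Ob, Efr3a, Sem1, Tmem98 and Olig2, and both peaks of Cox6b2. They also include a peak on an assembly patch scaffold, given below, whose 24 h ratio rests on 1 read per library.

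In the fit over all peaks (limma-trend on log2 of the value plus 1), 184 of the 306 were called higher with TNF at 72 h at an adjusted p under 0.05 and 0 lower (0 at an unadjusted p under 0.05), where 6.24% of the 88919 peaks tested were called higher and 5.55% lower. Scaling to equal totals turned the split over all peaks to 4.75% higher and 7.42% lower and left 147 of the 306 called higher, and leaving out 1 of the 6 libraries at 72 h left 108 to 133. At 24 h, 0 of the 306 were called higher and 0 lower by limma-trend, where 7.06% and 3.53% of all peaks were. An unadjusted p under 0.05 was reached by 1 and 2 of them, and edgeR and DESeq2 gave 0 calls. All 6 libraries are in order at 72 h (each TNF library above each untreated one) in 285 of the 306, where 17.4% of all peaks are. At 24 h, 8 were in that order and 8 in the opposite one, where 15.0% and 15.2% of all peaks are. All these counts follow from the choice.

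The difference between the TNF effects at 72 h and at 24 h was itself fitted as an interaction. By limma-trend 0 of the 306 passed an adjusted p under 0.05, where 0.0% of all peaks were called higher and 0.00112% lower. edgeR's quasi-likelihood test also called 0, where 0.0% of all peaks were called higher, and DESeq2 called 5 higher and 0 lower, where 0.0191% and 0.0787% were (0 of the 306 were lower at an unadjusted p under 0.05 by any of the 3 tools). An unadjusted p under 0.05 with a higher interaction was reached by 170 of the 306 with limma-trend, 168 with edgeR and 177 with DESeq2, where 3.59%, 3.09% and 3.56% of all peaks reached it. The fitted interaction was above 0 in 306 of 306 (median 0.83 on the log2 scale). Peaks with a high ratio at 72 h and a low one at 24 h were chosen, so the sign, the size and the low p-values of the interaction all follow from the choice. Peaks opened at both times had a median interaction of -0.06.

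The widest gaps between the libraries at 72 h were at the following peaks, ranked by the lowest TNF library over the highest untreated library. Tshz2 encodes a teashirt zinc-finger protein, and a peak within it (chr2:169919138-169919638) held 16.7, 17.9 and 6.37 normalised reads at 72 h and 45.6, 68.0 and 43.2 with TNF. At 24 h it held 28.5, 60.5 and 33.3 without TNF and 42.4, 31.2 and 50.9 with it. The 72 h groups were far apart and the 24 h groups overlapped, with the untreated 72 h libraries the low ones (ratio 3.82 at 72 h, 1.02 at 24 h).

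A peak 241 kb from Ano5, which encodes a calcium-activated scramblase of muscle and bone (chr7:51268727-51269227), held 27.0, 22.7 and 10.2 at 72 h and 64.4, 73.9 and 68.4 with TNF. At 24 h it held 10.2, 13.3 and 16.0 without TNF and 15.0, 15.1 and 8.31 with it. Here the TNF libraries at 72 h were the high ones, and the peak was at 1.47 ± 0.838 in NSPs (n = 3) and at 49.4 ± 14.7 at 1 week (n = 4).

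A peak 34.9 kb from Zdhhc21, a palmitoyltransferase gene (chr4:82763571-82764071), held 54.0, 55.0 and 54.8 at 72 h and 115, 132 and 122 with TNF. At 24 h it held 74.0, 50.2 and 76.4 without TNF and 67.2, 76.5 and 54.0 with it. The untreated 72 h libraries were almost level, and the 1 week mean of 281 ± 25.3 (n = 4) was above every 72 h library.

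Among the other peaks with wide gaps, the one 187 kb from Myc, a transcription factor of growth and proliferation (chr15:61797895-61798395), held 38.6, 45.5 and 40.8 at 72 h and 104, 117 and 92.4 with TNF, and its 24 h means were 21.8 ± 12.7 and 24.8 ± 3.25. The peak within Pde7b, a cyclic AMP phosphodiesterase gene, was at 31.2 ± 6.06 without and 78.0 ± 11.6 with TNF at 72 h (SD, n = 3 each). Peaks near Dnajc21 and in Colq, which encodes the collagen tail of acetylcholinesterase, had ratios of 3.11 and 2.96 at 72 h and 1.17 and 1.14 at 24 h. Those near Tbl1x, a corepressor subunit gene, and Tmx1, a thioredoxin-related gene, had 2.43 and 2.20 at 72 h and 0.953 and 0.869 at 24 h. In these 6 peaks each TNF library at 72 h lay above each untreated one, which the ranking by this gap ensures.

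The peaks with the highest TNF levels at 72 h had smaller ratios. A peak 264 kb from Eea1, an early endosome tethering gene (chr10:96308920-96309420), held 286, 330 and 279 normalised reads at 72 h and 563, 557 and 626 with TNF. At 24 h it held 636, 590 and 532 without TNF and 634, 711 and 724 with it. The TNF libraries at 72 h lay near the untreated 24 h libraries, and the untreated 72 h libraries and the 1 week libraries (354 to 385) were the low ones. In NSPs the mean was 1079 ± 75.2 (n = 3).

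NSP means were also the highest at peaks near Zeb1, a transcription factor of epithelial-mesenchymal transition (278 ± 27.9 at 72 h, 487 ± 48.8 with TNF, 540 ± 91.9 in NSPs), and Tex44 (248 ± 44.6, 424 ± 21.0 and 658 ± 129). The Sem1 peak, near a proteasome subunit gene, was at 151 ± 20.2 at 72 h and 330 ± 80.3 with TNF, and at 258 ± 10.1 in NSPs. A peak 2.96 kb from Ccdc86 went the other way, at 104 ± 40.6 in NSPs, 279 ± 8.40 at 72 h and 490 ± 27.6 with TNF.

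**Figure D3:**
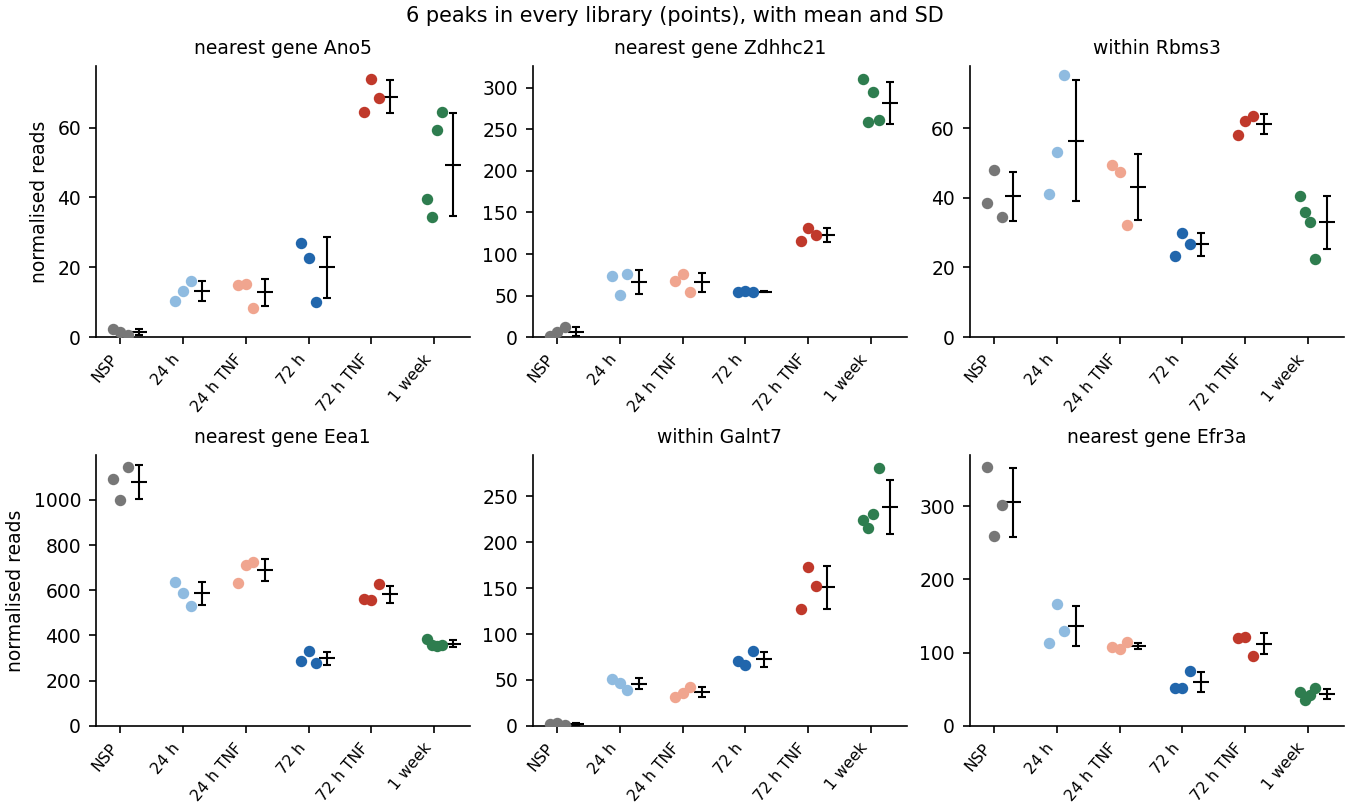
Normalised reads in each library (points) with mean and SD (black) for 6 peaks across the 6 groups, on axes that start at 0. In each panel the 3 TNF libraries at 72 h (dark red) lie above the 3 untreated ones (dark blue), and the panels differ in whether NSPs (Eea1, Efr3a) or 1 week cells (Zdhhc21, Galnt7) are highest.

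The comparison of 1 week with NSPs uses neither of the groups that chose the peaks, and asks how the sites behave in differentiation without TNF. By limma-trend, 143 of the 306 (46.7%) were called higher at 1 week and 79 (25.8%) lower, and 84 were not called, where 33.7% of all peaks tested were higher and 33.6% lower. Among peaks with a similar TNF level at 72 h, from 50 to 100, 32.0% were higher and 30.7% lower, and among all peaks with a level of at least 50 the shares were 37.8% and 27.2%. Of the 306, 98 had a level of at least 100. Peaks opened at both times were higher in 52.9% and lower in 15.3%, and those opened at 24 h only in 32.8% and 31.9%. These shares stand side by side, and their differences were not tested. Each 1 week library lay above each NSP library in 139 of the 306 and below in 71, where 31.8% and 30.4% of all peaks do. The library tag differs between these groups, so its part cannot be told apart from that of time.

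The 3 classes followed different courses. In the 143 peaks higher at 1 week, the median of means was 16.9 normalised reads in NSPs, 46.0 at 24 h, 41.9 at 72 h, 82.0 at 72 h with TNF and 84.5 at 1 week. The TNF-treated 72 h mean was above the NSP mean in 143 of these and above the 1 week mean in 73. In the 79 peaks lower at 1 week, the median was 127 in NSPs, 88.5 at 24 h, 48.6 at 72 h, 88.5 at 72 h with TNF and 43.8 at 1 week. In this class the TNF-treated 72 h mean was above the 1 week mean in 78 and above the NSP mean in 19. The 84 remaining peaks had medians of 48.6 in NSPs, 39.7 at 72 h, 73.2 with TNF and 48.4 at 1 week.

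By the medians only, the class that gained accessibility in differentiation was thus near its 1 week level after 72 h with TNF. Single peaks lay on both sides, 73 of the 143 above their own 1 week mean. The class that lost accessibility was, by the medians, at its 24 h level. The 72 h and 24 h levels chose the peaks and the 1 week and NSP levels defined the classes, so these orders are a description. Of the 306, the TNF-treated 72 h mean was the highest of the 6 groups in 148, the 1 week mean in 71, the NSP mean in 57 and a 24 h mean in 30.

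**Figure D4:**
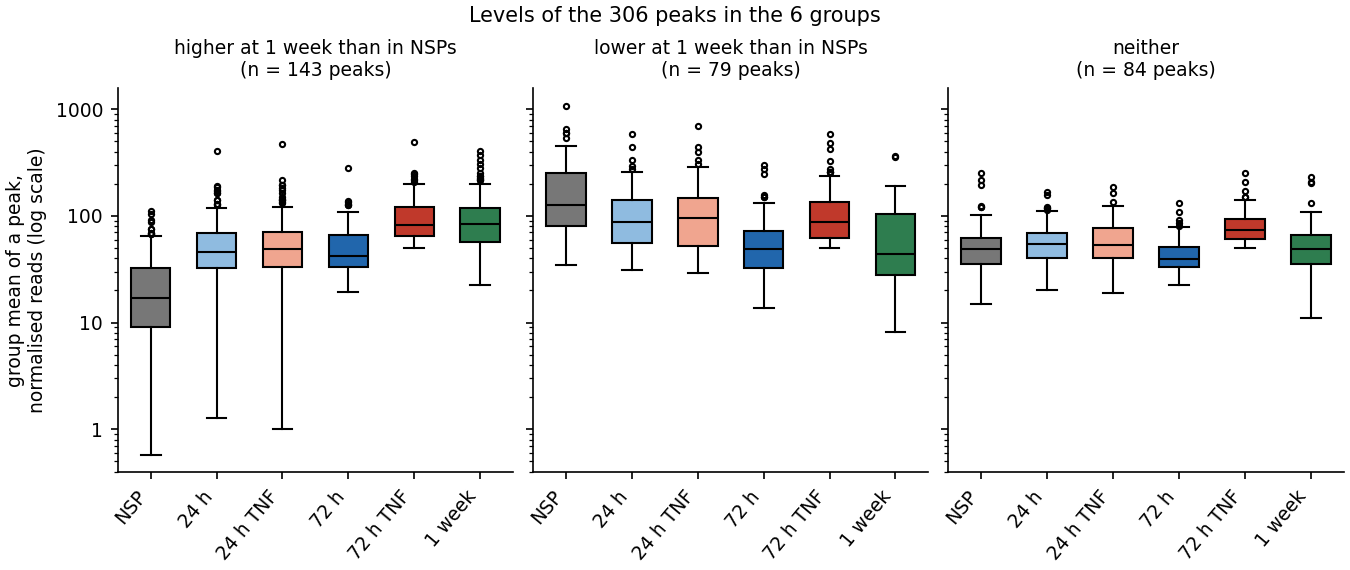
Group means of the 306 peaks (boxes, median and quartiles; whiskers to 1.5 interquartile ranges, circles beyond) in the 6 groups, on a log scale, split by the call at 1 week against NSPs. Peaks higher at 1 week (143) have a median of 16.9 in NSPs, peaks lower at 1 week (79) one of 127, and in both the TNF-treated 72 h box lies above the untreated one, as the choice requires.

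Among the peaks that rose most clearly from NSPs to 1 week was one within Galnt7, which encodes an enzyme of O-glycosylation (chr8:57543779-57544279). It held 1.75, 3.30 and 0.664 normalised reads in NSPs, the last value being 1 read. In the 4 libraries at 1 week it held from 216 to 281, with no overlap. The log2 difference was 6.46 ± 0.26 (SE), with an adjusted p of 7.34e-19 by limma. Its size depended on the value added before the log2, and with 8 in place of 1 it was 4.64. By edgeR and DESeq2 it was 6.75 and 6.85. At 72 h the peak held 70.8, 65.8 and 81.6, and 127, 173 and 152 with TNF, so both lay between NSPs and 1 week.

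A peak 2.13 kb from Ergic1, a gene of transport between the endoplasmic reticulum and the Golgi (chr17:26658812-26659312), held 17.5, 27.3 and 23.3 in NSPs and 327, 371, 372 and 279 at 1 week (log2 difference 3.85 ± 0.17, adjusted p 6.64e-18 by limma). At 72 h it was at 102 ± 6.72 and with TNF at 176 ± 4.97 (n = 3 each). A peak 52.2 kb from Mycn, a proto-oncogene of neural progenitors, rose from 67.2 ± 4.92 in NSPs to 409 ± 41.8 at 1 week (log2 difference 2.58 ± 0.14, adjusted p 3.35e-16 by limma). At 72 h it held 121, 146 and 149, and 256, 248 and 253 with TNF. In all of these peaks 72 h with TNF fell between the untreated 72 h and the 1 week levels.

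Among the peaks that fell from NSPs to 1 week, the Eea1 peak fell by 1.57 ± 0.10 on the log2 scale (adjusted p 7.20e-14 by limma). A peak 201 kb from Efr3a, a gene for a plasma membrane anchor of a lipid kinase, held 354, 260 and 302 in NSPs and 46.7, 35.1, 41.8 and 51.5 at 1 week (fell by 2.78 ± 0.19, adjusted p 1.72e-13 by limma). Its 72 h libraries held 51.5, 51.4 and 75.2, close to 1 week, and the TNF libraries 120, 121 and 96.0, close to the untreated 24 h libraries (113, 167 and 129). Peaks near Lpp, a focal adhesion gene, and in Fndc3b fell by 3.56 ± 0.26 and 2.86 ± 0.21 (adjusted p 4.33e-13 and 6.50e-13 by limma), and were at 73.0 ± 11.5 and 119 ± 22.1 at 72 h with TNF against 39.3 ± 10.6 and 65.7 ± 17.9 without.

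Few of the peaks lay near gene ends, and their share there was close to that of peaks of similar level. Of 304 on sequences with annotated protein-coding genes (RefSeq, GRCm38.p6, the patch release of the mm10 assembly), 18 (5.92%) were centred within 1 kb of a gene end, against 15.0% of all peaks, 6.09% of peaks with a TNF-treated 72 h mean of 50 to 100 and 2.89% of those opened at both times. Inside a gene were 155 (51.0%), against 53.5% of all peaks. More than 100 kb from a gene end were 84 (27.6%), against 17.8% of all peaks, 19.1% of those of similar level and 21.4% of those opened at both times. The median distance was 32.1 kb, against 20.1 kb over all peaks, 25.5 kb for those of similar level and 29.6 kb for those opened at both times. A peak opened at both times lay within 50 kb of 69 (22.7%), against 15.8% of all peaks and 16.3% of those of similar level. Of the peaks opened at both times, 24.5% had another such peak within 50 kb. None of these differences was tested.

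**Figure D5:**
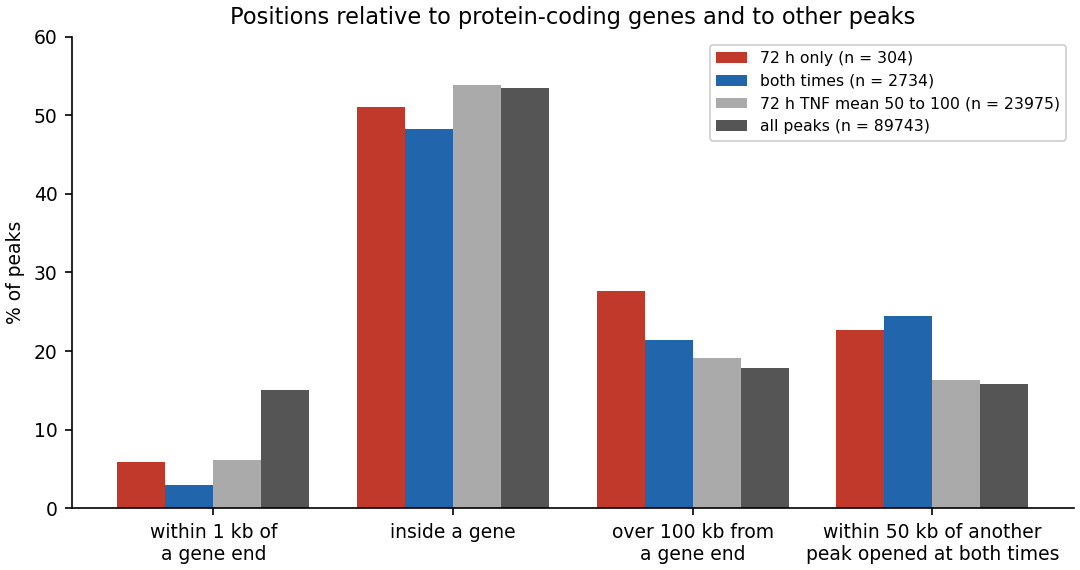
Share of peaks (%) within 1 kb of a gene end, inside a gene, over 100 kb from a gene end and within 50 kb of another peak opened at both times, for peaks opened at 72 h only (304), opened at both times (2734), with a 72 h TNF mean of 50 to 100 (23975) and all (89743). The red bars are at 5.92% near gene ends and 27.6% over 100 kb from one.

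The 304 peaks had 294 nearest genes, and 10 genes were nearest to a pair of them (Adgrg6, Cox6b2, Dtnbp1, Fut10, Gfod1, Hrh4, Lpp, Myc, Nrg1 and Zc3h12c). The closest pair was at Cox6b2, with starts 0.842 kb apart. The one inside the gene (chr7:4752009-4752509) held 52.8, 59.8 and 35.7 at 72 h and 102, 115 and 98.4 with TNF, and the one over the promoter printed above (chr7:4752851-4753351) held 46.3, 50.2 and 51.0 at 72 h and 72.4, 114 and 97.2 with TNF. In both the groups were apart at 72 h, which the choice favours. They parted in differentiation: the promoter peak fell by 1.11 ± 0.21 from NSPs to 1 week (log2, adjusted p 4.38e-05 by limma), and the other was at 31.2 ± 8.97 and 36.7 ± 14.7 (adjusted p 0.586 by limma).

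The other peaks at gene ends with the largest ratios were at Ceacam16, Polr3gl, Cx3cl1 and between Zmynd15 and Cxcl16. The Ceacam16 peak held 27.0, 39.5 and 34.4 at 72 h and 73.3, 69.5 and 79.2 with TNF. The Polr3gl peak, at a gene of an RNA polymerase III subunit, held 39.9, 58.6 and 35.7, and 122, 70.9 and 84.0 with TNF. Cx3cl1 and Cxcl16 encode the chemokines that are made as membrane-bound proteins, ligands of CX3CR1 and CXCR6. The Cx3cl1 peak held 21.9, 38.3 and 42.1 at 72 h and 58.1, 56.2 and 90.0 with TNF, and the one 0.244 kb from Zmynd15, within Cxcl16, held 29.6, 31.1 and 29.3, and 70.6, 50.3 and 52.8 with TNF. At 24 h the Cx3cl1 peak held 41.0, 26.6 and 20.9 without TNF and 41.6, 33.4 and 31.2 with it, a ratio at the limit of 1.2. In each of these peaks the groups were apart at 72 h.

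Genes of the NF-kB and TNF response were nearest to 0.134% of all peaks, 0.622% of those opened at both times and 0 of the 306. Reactive astrocyte genes were nearest to 0.165% of all peaks and 0.658% of those opened at both times, TGF-beta and matrix genes to 0.363% and 0.878%, interferon response genes to 0.0588% and 0.183%, and astrocyte genes to 0.392% and 0.475%. Each of these lists was nearest to 0 of the 306, and at such shares a count of 0 among 306 says nothing about the chosen peaks. None of the peaks within 1 kb of the ends of these genes was among the 306 either. Of 20 such peaks at NF-kB and TNF response genes, limma-trend called 9 higher at 72 h and 4 at 24 h (median log2 differences 0.39 and 0.25), where 6.24% and 7.06% of all peaks were called. Of 20 at interferon response genes it called 5 and 1 (0.32 and 0.12), and of 22 at reactive astrocyte genes 5 and 8 (0.30 and 0.35), with 1 of the 22 lower at 72 h. Of 25 at TGF-beta and matrix genes it called 1 and 0 (0.16 and 0.10). Of 21 at astrocyte genes, 1 was called higher at 72 h and 2 at 24 h, and 3 and 1 lower (-0.05 and -0.10). Over all peaks the median was 0.03 at 72 h and -0.03 at 24 h.

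Chemokine and cytokine genes were nearest to 2 of the 306 (0.654%), at Cx3cl1 and Cxcl2, against 0.329% of those opened at both times and 0.0932% of all peaks. Cxcl2 encodes a neutrophil-attracting chemokine, and a peak 3.52 kb from it (chr5:90900129-90900629) held 24.4, 38.3 and 45.9 at 72 h and 60.8, 72.4 and 51.6 with TNF. This peak held 75.9, 79.6 and 85.1 in NSPs, and limma did not call it at 72 h (adjusted p 0.0950). AP-1 and immediate early genes were nearest to 4 (1.31%), against 0.366% of those opened at both times and 0.243% of all peaks. The 4 lay 187 kb or more from Jun, Klf4 or Myc, and counts this small were not tested. The peak 472 kb from Myc (chr15:62462562-62463062) held 151, 157 and 162 at 72 h and 257, 293 and 278 with TNF, and fell by 1.24 ± 0.15 from NSPs to 1 week (log2, adjusted p 1.46e-08 by limma), whereas the one 187 kb from Myc rose by 3.70 ± 0.36 (adjusted p 3.98e-10 by limma). The Jun peak was one of the 21 whose libraries overlapped at 72 h (28.3, 16.7 and 51.0, and 62.6, 44.3 and 68.4 with TNF), and the Klf4 peak was at 64.6 ± 15.6 without and 111 ± 33.0 with TNF.

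Sox2, a transcription factor of neural stem cells, was the one progenitor gene nearest to a chosen peak, 99.3 kb away. The peak held 108, 147 and 146 in NSPs, 29.6, 27.5 and 30.6 at 72 h, 50.1, 51.7 and 51.6 at 72 h with TNF and 23.8, 16.4, 24.2 and 13.9 at 1 week (fell by 2.73 ± 0.27 on the log2 scale to 1 week, adjusted p 3.07e-10 by limma). The TNF libraries at 72 h were apart from the untreated ones and far under NSPs, and limma did not call the peak at 72 h (adjusted p 0.0685). A peak 1.85 kb from Olig2, a transcription factor of the oligodendrocyte lineage and of neural progenitors, held 341, 712 and 746 in NSPs, 77.2, 120 and 94.3 at 72 h, 148, 220 and 192 with TNF and 73.2, 89.6, 61.6 and 39.7 at 1 week (fell by 3.14 ± 0.23, adjusted p 1.03e-12 by limma). Its 24 h means were 199 ± 20.3 without TNF and 212 ± 17.0 with it, so 72 h with TNF was near the 24 h level. A peak 375 kb from Cdh5, an endothelial cadherin gene, was at 48.9 ± 6.91 without and 86.3 ± 3.96 with TNF at 72 h. Microglial markers were nearest to 0.0532% and neuronal markers to 0.144% of all peaks, so their counts of 0 among the 306 carry no information.

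The MHC class II stretch of chromosome 17, singled out after its values were seen, held 3 of the chosen peaks among 19 (chr17:34152870-34313870). Besides the H2-Aa promoter, they were a peak 9.24 kb from H2-DMb1, a peptide-loading chaperone subunit gene, and one 3.75 kb from H2-Ob, whose product restrains that chaperone. The H2-DMb1 peak held 42.5, 44.3 and 57.4 at 72 h and 112, 102 and 90.0 with TNF, and 69.5, 66.4 and 83.8 at 24 h and 50.4, 73.3 and 54.0 with TNF. The H2-Ob peak held 92.6, 81.3 and 89.2 at 72 h and 162, 148 and 157 with TNF. Groups were apart at 72 h and overlapped at 24 h in the H2-DMb1 peak, which the choice favours here too. Peaks near Tap2, a peptide transporter gene, and H2-Ab1, the class II beta chain gene, were higher with TNF at both times, with means of 363 and 885 (Tap2) and 88.3 and 259 (H2-Ab1) at 72 h without and with TNF, and of 211 and 615 and of 69.0 and 164 at 24 h. Microglia and macrophages also carry class II genes, and the microglial values given above are to be read beside these.

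On the assembly patch scaffold MG3835, 2 of the 306 peaks were at 1 read, the lowest value in the table, in all 9 NSP and 24 h libraries. Their ratio at 24 h, 0.780, is therefore only that of the libraries' size factors. The one at 11417879-11418379 had 39, 26 and 30 unscaled reads at 72 h, 91, 43 and 88 with TNF and 230, 311, 108 and 204 at 1 week, and the one at 11368859-11369359 had 12, 22 and 19, and 76, 21 and 59, and 23, 34, 11 and 23. All libraries with these reads carry the name tag and all without them lack it. The 24 h condition was met there without a measured level, and leaving these peaks out gave 304 peaks and 141 called higher at 1 week. Of the 306 peaks, 202 had at least 20 reads in each of the 12 libraries of the rule.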

How the data were processed

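ATAC-seq libraries of NSPs and differentiating astrocytes (19, in 6 groups taken from the sample titles) were analysed. Per the labels, the authors used FastQC and Trim Galore on the reads, Bowtie2 and SAMtools with the mm10 genome for alignment, and MACS2 for peaks. Versions, the handling of duplicates and the shift of reads for the transposase are not given in the sources used here. The deposited table holds a normalised signal per peak and library. In each library 100% of values were whole multiples of the lowest (tolerance 0.001), so unscaled reads were recovered, with none under 1.

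Group means of the deposited values gave the 306 peaks. Peaks and gene lists were chosen with earlier results of these data known. limma-trend 3.58.1 (R 4.3.3) was fitted to log2(value + 1) of all 19 libraries, with a mean per group, for 88919 peaks kept by filterByExpr (minimum count 10; 1235 left out). P-values are two-sided and adjusted (Benjamini-Hochberg) over these peaks; a call is an adjusted p under 0.05, over 4 comparisons. Fold changes on this scale understate those of faint peaks. edgeR 4.0.16 and DESeq2 1.42.0 were run on the recovered reads as alternatives.

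Described are the 10 peaks with the largest ratio of the lowest TNF to the highest untreated library at 72 h, the 5 with the highest TNF level, the 4 called with the smallest p in each direction at 1 week, the 6 at gene ends with the largest ratio, those nearest to a listed gene, and the neighbours of each limit. The MHC class II stretch, the promoters and the peaks of Olig2 and Cdh5 were added after values were seen. Gene ends and promoters came from RefSeq (GRCm38.p6, 21896 protein-coding genes). Motifs were searched in promoter windows only, and base composition of peaks was not analysed here.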

Additional observations from a re-analysis of the deposited data

Results flagged for a closer look

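In 2 of 39 described peaks and medians examined, 1 of the 4 libraries at 1 week stood apart from the other 3 by Dixon's ratio of its gap to the range, which chance gives in about 1 of 20 such groups. At the peak nearest to Eea1 the 1 week libraries held 354, 356, 357 and 385 normalised reads (ratio 0.911). At the peak nearest to Sem1 they held 152, 152, 155 and 207 (ratio 0.938). In both, all 4 lay under every NSP library.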

How the results depend on the processing

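The number of peaks chosen moved with every limit: 949 at a 72 h fold of 1.5, 72 at 2, 97 at a 24 h limit of 1, and 98 at a minimum of 100. Scaling to equal totals gave 193, of which 183 were among the 306. Leaving out 1 library gave 301 to 464 (464 without replicate 2 of the untreated 72 h group) and leaving out a replicate number 562 to 580. At 5 kb, 53 peaks lay near a gene end. Peaks called higher at 72 h numbered 108 to 133 without 1 library: 110 without untreated replicate 1, 108 without TNF replicate 2 and 109 without TNF replicate 3. At 24 h, 0 to 2 were called lower without 1 library (2 without TNF replicate 3). The interaction gave 5 calls with only the compared groups and 5 with DESeq2. In left-out libraries, the median 72 h ratio under equal totals, chosen after seeing the data, was 1.33 and 1.27 without replicates 1 and 3. Where the cause of these shifts is not the limit itself, it was not tested. Calls at 1 week stayed between 138 and 145 higher and between 72 and 83 lower in all settings run. The deviations of libraries with the same number in their titles from their group means correlated at -0.0261 to 0.106. Library names number the TNF libraries at 72 h 2 to 4 and the untreated ones 1 to 3, and the 2 pairs so numbered correlated at 0.0309 and 0.0232. These low values gave no sign of pairing by either numbering. They were not set against pairs of unlike number, so whether libraries shared a culture stays unknown. With the replicate number as a block, 182 peaks were called higher at 72 h and 144 and 75 higher and lower at 1 week, and the block changed no other count of calls among the 306. With the number in the library name as a block, chosen after seeing the data, 138 were called higher at 72 h and 145 and 78 higher and lower at 1 week. Reads per library limit the precision of the ratios, as the counting errors show.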
